A study of Rattus norvegicus with 6 samples.

Results

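Complement is the cascade of plasma and tissue proteins that tags surfaces for removal and attracts leukocytes. In its classical pathway C1q, built from the chains of C1qa, C1qb and C1qc, recognises a target and carries the proteases C1r and C1s. C1s then cuts C4 and C2, so that C3 is cleaved. Factor B, the product of Cfb, forms the C3-cleaving enzyme of the alternative pathway together with C3b, and the C1 inhibitor encoded by Serping1 blocks C1r and C1s. Tissue macrophages are a main source of C1q, while fibroblasts, endothelial cells and macrophages can make C1r, C1s, C3, factor B and C1 inhibitor, and the liver supplies most of the plasma proteins other than C1q.

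The genes described here are 9 complement components and regulators, C1qa, C1qb, C1qc, C1r, C1s, C2, C3, Cfb and Serping1, chosen by name. Of these, 8 had a probe set annotated to that gene alone, out of 18166 genes measured in this way, and each of the 8 had 1 such probe set. C2 had none and was not analysed here. Cerebral arteries of male rats were compared 6 hours after subarachnoid haemorrhage (SAH, arterial bleeding under the arachnoid membrane that surrounds the brain; arrays 1, 4 and 5) and after a sham operation (arrays 6, 7 and 8). The sources used here do not give strain, age, how the bleed was made, the time after the sham operation, or whether RNA of several animals was pooled. They number the samples without saying that each is a separate animal, so p-values measure only the spread between the 6 samples, which may be technical.

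Values are log2 expression values from Affymetrix arrays, normalized by the authors with RMA. Each pair of arrays had r of 0.970 to 0.991 across probe sets (a description, since probe sets are not replicates), and the array medians lay between 7.31 and 7.37. Defining markers of the arterial wall were present. Myh11, smooth muscle myosin, read 12.51 to 12.66 on the SAH arrays and 12.81 to 13.04 on the sham arrays, and Cdh5, the endothelial cadherin, read 11.53 to 11.77 on the SAH arrays and 10.93 to 11.14 on the sham arrays. Other endothelial markers lay the other way, with differences, SAH minus sham, of -0.76 for Cldn5, -0.50 for Tek and -0.29 for Vwf in log2 units, and over the 5 measured the median was -0.29 and none passed. Of the 4 hepatocyte markers measured, Alb, the liver's albumin gene, and Apob lay below the median of every array, whereas Ttr and Fgb lay above it. All 8 complement genes lay above the median of every array. The tissue was whole artery, so fewer cells of a type and less RNA per cell cannot be told apart.

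The comparison addresses whether the arterial wall and the tissue attached to it carry more or less complement transcript 6 hours after the bleed. None of the 8 genes passed the threshold, an adjusted p under 0.05 in limma's test over all probe sets, which 1.29% of all genes passed (235 of 18166; 0.963% higher and 0.33% lower in SAH). The values nevertheless lay apart in both directions. Cfb, C1r, C1s and Serping1 were higher on all 3 SAH arrays than on any sham array, C1qa, C1qb and C1qc were lower on all 3, and the C3 values of the groups overlapped. Non-overlapping groups were thus found for 7 of 8 genes, where 26.8% of all genes had them (11.4% with SAH above, 15.4% with SAH below). At an unadjusted limma p under 0.05 the count was also 7 of 8, 4 higher and 3 lower, where 18.6% of all genes passed (8.16% higher and 10.5% lower in SAH). The genes were chosen with results of these arrays known, so these counts are a description. The median difference over the 8 genes was 0.04 log2 units, beside -0.01 over all genes.

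**Figure D1:**
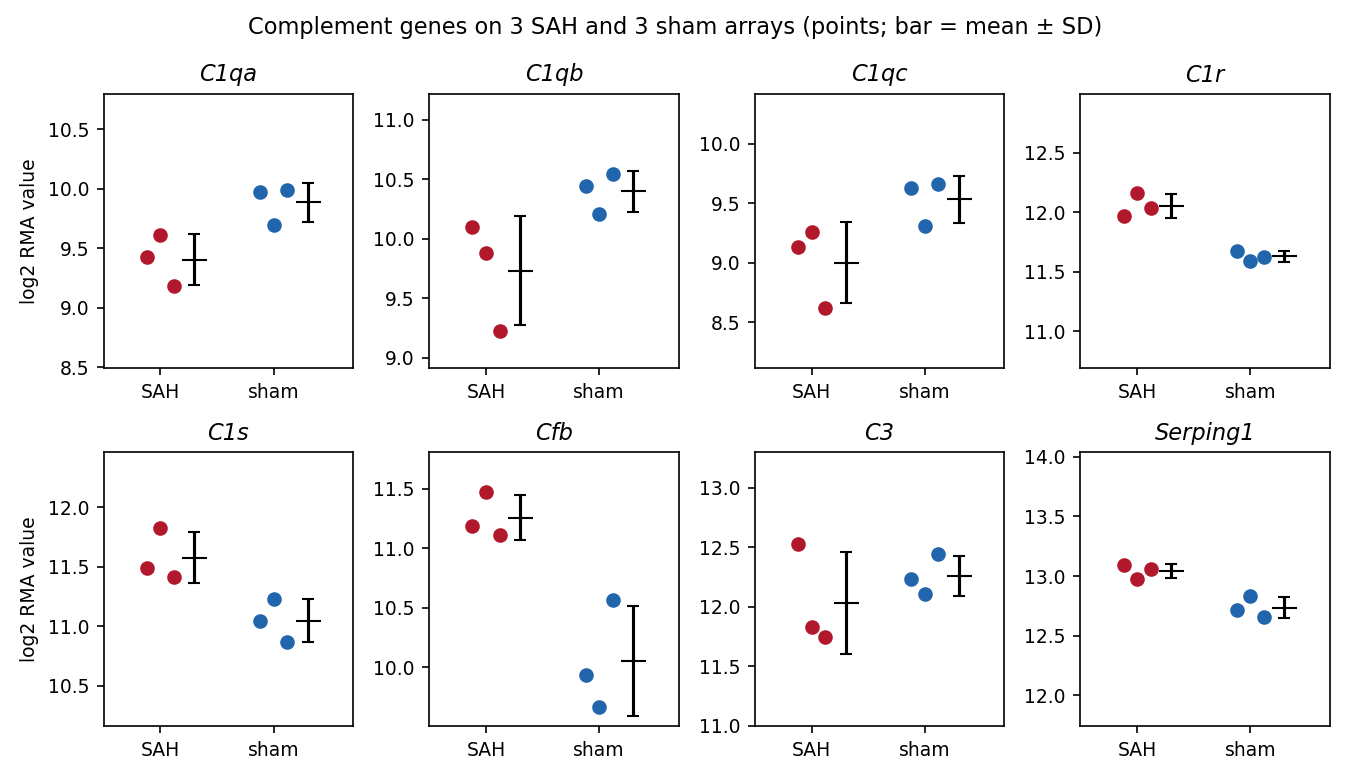
log2 RMA values (vertical axes, each spanning the same number of log2 units) of the 8 measured complement genes on 3 SAH arrays (red, left) and 3 sham arrays (blue, right); points are arrays and black bars the mean ± SD. The C1q chain genes lie lower on the SAH arrays, C1r, C1s, Cfb and Serping1 lie higher, and C3 overlaps, with SAH array 1 at 12.53 above all other arrays.

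The C1q chains are encoded by neighbouring genes: in the RefSeq table of the GRCr8 assembly, C1qb, C1qc and C1qa follow each other on chromosome 5 with no other protein-coding gene between them. C1qa had log2 values of 9.42, 9.61 and 9.19 on SAH arrays 1, 4 and 5, against 9.97, 9.70 and 9.99 on sham arrays 6, 7 and 8. C1qb read 10.10, 9.88 and 9.22 on the SAH arrays, against 10.44, 10.21 and 10.54 on the sham arrays. C1qc read 9.13, 9.26 and 8.62 on the SAH arrays, against 9.63, 9.31 and 9.66 on the sham arrays. For each chain the lowest of all 6 values was that of SAH array 5 and the lowest sham value that of array 7. The highest SAH value came close to the sham value of array 7 for each chain. The values were 9.61 beside 9.70 for C1qa, 10.10 beside 10.21 for C1qb and 9.26 beside 9.31 for C1qc.

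The difference, SAH minus sham, was -0.48 ± 0.14 log2 units for C1qa (limma's standard error, n = 3 each; 95% interval -0.82 to -0.14; limma adjusted p = 0.206), which is a 1.40-fold lower level. For C1qb it was -0.67 ± 0.23 (95% interval -1.21 to -0.12; limma adjusted p = 0.256), 1.59-fold lower. For C1qc it was -0.53 ± 0.19 (95% interval -0.98 to -0.08; limma adjusted p = 0.272), 1.45-fold lower. None of the chains passed the threshold. The size rested partly on SAH array 5: without it the differences were -0.37, -0.41 and -0.34 for C1qa, C1qb and C1qc, with limma adjusted p of 0.443, 0.420 and 0.496.

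The sequences upstream of genes that lay on opposite sides are shown for comparison, C1qa and C1qb from the lower set and C1r from the higher one. Each is the 250 bases before the RefSeq transcription start (build GRCr8), written 5′ to 3′ in the gene's own direction, with capitals marking matches to the motifs named after them. C1qa lies at chr5:154419934-154420183, minus strand, C1qb at chr5:154407828-154408077, minus strand and C1r at chr4:159098763-159099012, plus strand.
C1qa: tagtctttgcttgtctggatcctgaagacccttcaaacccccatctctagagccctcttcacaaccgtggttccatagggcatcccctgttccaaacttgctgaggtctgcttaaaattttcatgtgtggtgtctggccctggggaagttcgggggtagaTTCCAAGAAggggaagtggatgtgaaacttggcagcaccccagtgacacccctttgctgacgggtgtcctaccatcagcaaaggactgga
C1qb: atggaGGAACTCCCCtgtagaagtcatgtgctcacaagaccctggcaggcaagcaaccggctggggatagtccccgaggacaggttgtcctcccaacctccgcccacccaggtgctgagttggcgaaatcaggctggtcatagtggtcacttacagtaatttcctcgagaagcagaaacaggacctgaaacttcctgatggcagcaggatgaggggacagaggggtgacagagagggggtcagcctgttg
C1r: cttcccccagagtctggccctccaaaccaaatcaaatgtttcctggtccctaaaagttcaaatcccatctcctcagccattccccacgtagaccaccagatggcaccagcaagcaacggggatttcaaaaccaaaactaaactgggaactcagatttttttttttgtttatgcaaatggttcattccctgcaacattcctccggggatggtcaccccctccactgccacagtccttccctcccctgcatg

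Exact letters were searched on both strands for GAS (TTCNNNGAA, the element bound by STAT dimers), the ISRE core (bound by interferon regulatory factors) and the NF-kappaB motif. The capitals upstream of C1qa, TTCCAAGAA, match GAS and begin 90 bases before the start. Those upstream of C1qb, GGAACTCCCC, match the NF-kappaB motif when read on the opposite strand and begin 245 bases before the start. No match to these letters lay in the window of C1r, nor in the window of C3, which is not printed. The sources used here held no window for C1qc, C1s, C2, Cfb or Serping1, so these genes were not searched. The matches therefore do not compare the higher with the lower set. Among 33469 RefSeq windows of the same length, 7.67% held the GAS letters, 3.41% the ISRE core and 6.33% the NF-kappaB motif. None of the matches overlapped another, and a match is a description of the letters, not of a site in use.

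The C1q chains are known products of macrophages, and markers of these cells are given beside them. Csf1r, the macrophage growth factor receptor, read 10.13, 10.14 and 9.93 on SAH arrays 1, 4 and 5, against 10.57, 10.46 and 10.68 on sham arrays 6, 7 and 8. Cd163, the haemoglobin scavenger receptor of perivascular macrophages, read 7.35, 7.86 and 6.73 on the SAH arrays, against 8.69, 7.76 and 9.37 on the sham arrays. Mrc1, the mannose receptor of the same cells, read 8.10, 8.90 and 7.85 on the SAH arrays, against 9.53, 8.86 and 10.18 on the sham arrays. SAH array 5 was again the lowest of all 6 arrays for each of the 3 markers, and array 7 the lowest of the sham arrays, as for the C1q chains. The same lowest arrays were seen for some genes outside macrophage markers, though not the same order of all arrays. Gjb6, a connexin of astrocytes, read 9.17, 9.21 and 8.03 on the SAH arrays, against 10.30, 9.67 and 10.28 on the sham arrays, and Slc6a13, a transporter of meningeal fibroblasts, read 11.99, 11.51 and 10.06 on the SAH arrays, against 12.48, 12.21 and 12.47 on the sham arrays. The astrocyte marker Slc1a3 had the same lowest arrays, but Gfap was lowest on SAH array 1 (8.71). Among sham arrays, Gfap and Aqp4 were lowest on array 6 (9.21 and 8.40). None of the other fibroblast markers was lowest on both SAH array 5 and, among sham arrays, array 7. All 4 astrocyte markers had negative differences (-1.28 to -0.31) and none passed. Their mean log2 level was 8.89 to 9.84 on the SAH arrays and 9.84 to 10.31 on the sham arrays.

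Not all macrophage markers lay this way. Cd68, a lysosomal protein of phagocytes, differed by 0.37 ± 0.18 (SE) and Aif1, the actin-binding protein IBA1, by 0.21 ± 0.11, with limma adjusted p of 0.412 and 0.458. Csf1r, Cd163 and Mrc1 differed by -0.50 ± 0.11, -1.29 ± 0.44 and -1.24 ± 0.39, with limma adjusted p of 0.115, 0.250 and 0.218. Over the whole list of resident macrophage and microglial markers 9 of 10 were measured, 6 differences were below 0 and 3 above, and none passed. The list's mean log2 level was 8.14 to 8.43 on the SAH arrays and 8.48 to 8.87 on the sham arrays. The microglial markers P2ry12 and Tmem119 differed by 0.08 and -0.00. Tmem119 lay above the median of 1 array only, and P2ry12 lay little above the median of every array. At such low levels a small difference does not show that microglia were unchanged. Cd68, Aif1, P2ry12 and Tmem119 are outside the rule for naming genes and were chosen after their values were seen. The part of the macrophage, astrocyte and meningeal markers in the C1q values was not tested.

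**Figure D2:**
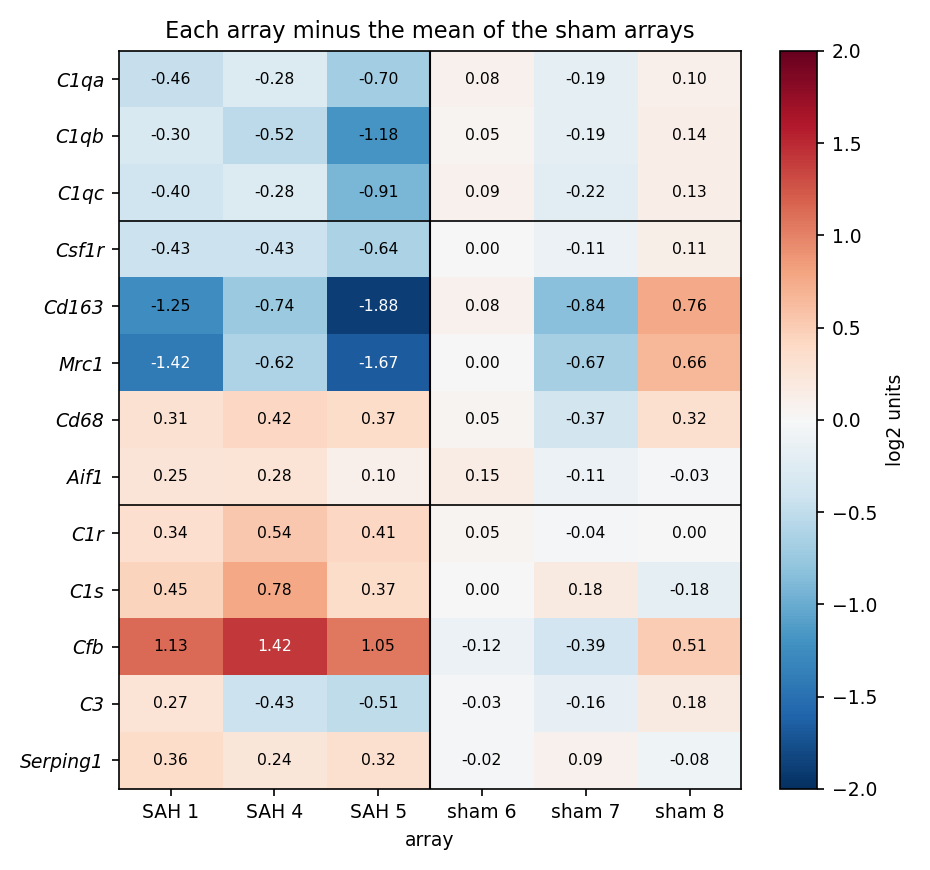
Log2 value of each array minus the mean of the 3 sham arrays (colour and printed number) for the C1q chains (top), macrophage markers (middle) and the other complement genes (bottom); columns are the SAH arrays and then the sham arrays. C1qb on SAH array 5 stood at -1.18 and Cd163 at -1.88, while Cfb stood at 1.05 to 1.42 on the SAH arrays and at -0.39 to 0.51 on the sham arrays.

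C1r and C1s, the proteases that C1q carries, lay opposite to it. They too are neighbours, on chromosome 4 in GRCr8, next to C1rl. C1r had log2 values of 11.97, 12.17 and 12.04 on SAH arrays 1, 4 and 5, against 11.68, 11.59 and 11.63 on sham arrays 6, 7 and 8. C1s read 11.49, 11.82 and 11.41 on the SAH arrays, against 11.05, 11.23 and 10.87 on the sham arrays. Every SAH value lay above every sham value for both genes, and SAH array 4 was the highest for both.

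C1r differed by 0.43 ± 0.10 log2 units (SE, n = 3 each; 95% interval 0.19 to 0.66; limma adjusted p = 0.124), a 1.34-fold higher level, and ranked 746 of 18166 genes by p. C1s differed by 0.53 ± 0.15 (95% interval 0.18 to 0.89; limma adjusted p = 0.187), 1.44-fold higher. Neither passed the threshold. C1r passed when probe sets below the array median were left out before the test (limma adjusted p = 0.0489, with the same difference), a setting under which 5.93% of the genes kept passed. Whether the proteases and the C1q chains differed from each other in their response was not tested. Markers of fibroblasts, a known source of both proteases, are given beside them. The 7 measured differences ran from -1.20 for Slc6a13 to -0.01 for Pi16 and Dcn, none passed, and the list's mean log2 level was 11.27 to 11.64 on the SAH arrays and 11.76 to 11.82 on the sham arrays. The part of these markers in the C1r and C1s values was not tested.

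Cfb had the largest difference of the 8 genes. Its log2 values were 11.18, 11.47 and 11.11 on SAH arrays 1, 4 and 5, against 9.93, 9.67 and 10.57 on sham arrays 6, 7 and 8. The SAH arrays lay close together (11.25 ± 0.19, mean ± SD, n = 3), whereas the sham arrays spread more widely (10.05 ± 0.46, n = 3), with array 8 above the other sham arrays. The difference was 1.20 ± 0.23 log2 units (SE; 95% interval 0.64 to 1.76), a 2.30-fold higher level that missed the threshold (limma adjusted p = 0.0870). Cfb ranked 458 of 18166 genes by p, and at a threshold of 0.10 it alone of the 8 genes passed, where 2.92% of all genes passed.

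Whether Cfb passed depended on the arrays and on the probe sets used. Without sham array 8 the difference was 1.46 and passed (limma adjusted p = 0.0392), in a fit where 0.523% of all genes passed. Without any other single array the differences were 1.01 to 1.27 and did not pass. Cfb also passed when dim probe sets were left out (limma adjusted p = 0.0374), where 5.93% of the genes kept passed. Sham array 8 stood apart from the other sham arrays in neutrophil markers too: their mean log2 level over 10 genes was 8.86, 8.98 and 9.98 on SAH arrays 1, 4 and 5, against 7.32, 7.47 and 9.48 on sham arrays 6, 7 and 8. SAH array 5 was the highest of all arrays in these markers and the lowest of the SAH arrays in Cfb. None of the 10 neutrophil markers passed. All 7 monocyte and general leukocyte markers had positive differences and none passed, and their mean log2 level was 10.61, 10.69 and 11.06 on SAH arrays 1, 4 and 5, against 9.54, 9.63 and 10.50 on sham arrays 6, 7 and 8. The part of either list in the Cfb values was not tested.

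C3, the protein on which all pathways converge, overlapped between the groups. It read 12.53, 11.83 and 11.75 on SAH arrays 1, 4 and 5, against 12.24, 12.11 and 12.44 on sham arrays 6, 7 and 8. SAH array 1 was the highest of all 6 arrays and SAH arrays 4 and 5 were the lowest. The difference was -0.23 ± 0.22 log2 units (SE; 95% interval -0.74 to 0.29; limma adjusted p = 0.710). It was -0.47 without SAH array 1 (limma adjusted p = 0.142) and -0.08 without SAH array 5 (0.947), so its size moved with single arrays. The interval leaves room for a lower or a slightly higher level after SAH.

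Serping1, the inhibitor, lay on the same side as the proteases it blocks. It read 13.10, 12.98 and 13.06 on SAH arrays 1, 4 and 5, against 12.72, 12.83 and 12.66 on sham arrays 6, 7 and 8. The groups did not overlap, and the spread within each was small (SD 0.06 for SAH and 0.09 for sham, n = 3 each). The difference of 0.31 ± 0.10 log2 units (SE; 95% interval 0.08 to 0.54; limma adjusted p = 0.219) is a 1.24-fold higher level and did not pass.

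**Figure D3:**
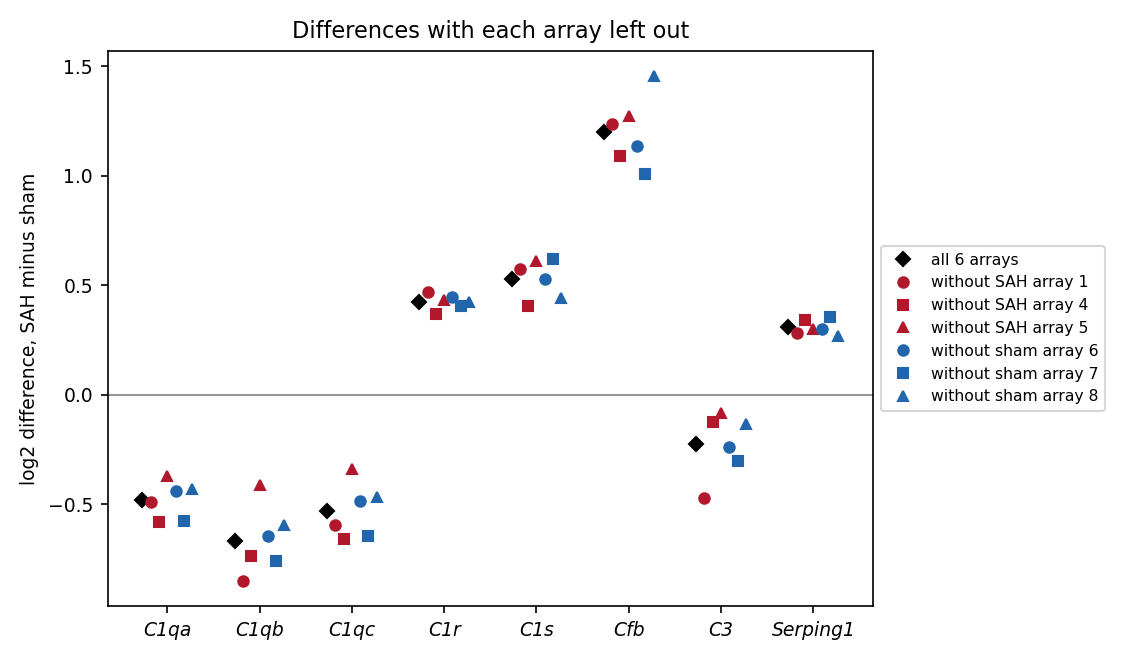
Log2 difference, SAH minus sham, of each of the 8 genes (horizontal axis) with all 6 arrays (black diamonds) and with each SAH array (red) or sham array (blue) left out. Cfb ranged from 1.01 to 1.46, C1qb from -0.85 to -0.41 and C3 from -0.47 to -0.08, and no difference changed sign.

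The rest of the pathway was read from 48 further complement genes, of which 41 had a probe set of their own. None passed the threshold. At an unadjusted limma p under 0.05 there were 8 of the 41, with 3 higher and 5 lower, beside 18.6% of all genes, and the groups did not overlap for 6 of the 41, beside 26.8% of all genes. The median difference over the 41 was 0.02 log2 units, beside -0.01 over all genes. These counts and this median include dim genes. Mbl1, Mbl2, Colec10, C5, C8a, C8b, C9, C4bpb, Cpn1, Cpn2, Csmd3, Cr2 and Vsig4 lay below the median of every array. The listed complement genes measured all lay above it. The further genes without a probe set of their own, C5ar1 and C5ar2 among them, were not analysed here.

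Among recognition molecules and proteases, C1rl, a protease related to C1r and its neighbour, read 7.93, 7.93 and 8.26 on the SAH arrays, against 7.74, 7.56 and 7.72 on the sham arrays (0.37 ± 0.13, SE; limma adjusted p = 0.256). Fcnb, the ficolin that mouse myeloid cells make, read 10.14, 10.29 and 10.95 on the SAH arrays, against 7.51, 8.11 and 10.35 on the sham arrays. Its groups overlapped because sham array 8 was high, and its difference was 1.80 ± 0.69 (limma adjusted p = 0.298). Without that array the difference was 2.65 and passed (limma adjusted p = 0.0417), in a fit where 0.523% of all genes passed. The mannose-binding lectin protease gene Masp1 differed by -0.29 ± 0.29 and the ficolin gene Fcna by 0.17 ± 0.11. The lectin gene Mbl1, which lay below the median of every array, differed by 0.08 ± 0.12.

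Of the alternative pathway, Cfd, the protease that cuts factor B, differed by -0.09 ± 0.10 (SE) and Cfp, properdin, by 0.10 ± 0.13, with limma adjusted p of 0.751 and 0.794. Terminal components form the membrane attack complex. Of these C8g differed by -0.39 ± 0.14 and C7 by -0.36 ± 0.14, with limma adjusted p of 0.270 and 0.290, and the SAH values of both lay below the sham values. C9 differed by 0.21 ± 0.15, C5 by 0.13 ± 0.13 and C8a by 0.12 ± 0.11, but C9, C5 and C8a lay below the median of every array.

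Regulators protect the body's own cells from the cascade, and the 5 with the smallest p all had negative differences. Cd59b, an inhibitor of the membrane attack complex, read 10.47, 10.64 and 10.56 on SAH arrays 1, 4 and 5, against 10.86, 11.00 and 10.96 on sham arrays 6, 7 and 8. Its difference of -0.38 ± 0.10 (SE; limma adjusted p = 0.153) had the smallest adjusted p among the 41 genes. Cr1l, the rodent regulator Crry that acts on the C3-cleaving enzymes, read 9.97, 9.99 and 9.94 on the SAH arrays, against 10.33, 10.30 and 10.14 on the sham arrays (-0.29 ± 0.10; limma adjusted p = 0.249). Susd4 differed by -0.31 ± 0.10 (limma adjusted p = 0.228). The groups of these 3 genes, of the 13 regulators measured, did not overlap, beside 26.8% of all genes. Cd46 differed by -0.27 ± 0.13 and Vtn, vitronectin, by -0.37 ± 0.20, with overlapping groups. In all, 7 of 13 regulators had differences below 0 and 6 above, and none passed. The 7 below 0 lay above the median of every array in level. Of the 6 above 0, C4bpb, Cpn1, Cpn2 and Csmd3 lay below the median of every array. C4bpa lay above it on 1 array and Csmd1 on 3.

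Receptors for complement fragments were measured for 10 of 12 genes, 6 of them above 0 and none past the threshold. Itgb2 and Itgam, the chains of complement receptor CR3 on myeloid cells, differed by 0.64 ± 0.24 and 0.56 ± 0.24 (SE), with limma adjusted p of 0.291 and 0.348. Itgb2 read 9.70, 9.65 and 10.25 on the SAH arrays, against 8.89, 9.12 and 9.66 on the sham arrays, so that sham array 8 again overlapped with the SAH arrays. Cd93 differed by 0.43 ± 0.21, Lrp1 by -0.23 ± 0.13 and Calr, calreticulin, by -0.13 ± 0.12. C3ar1, the receptor for the fragment C3a, differed by 0.21 ± 0.24 and was chosen after its value was seen.

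**Figure D4:**
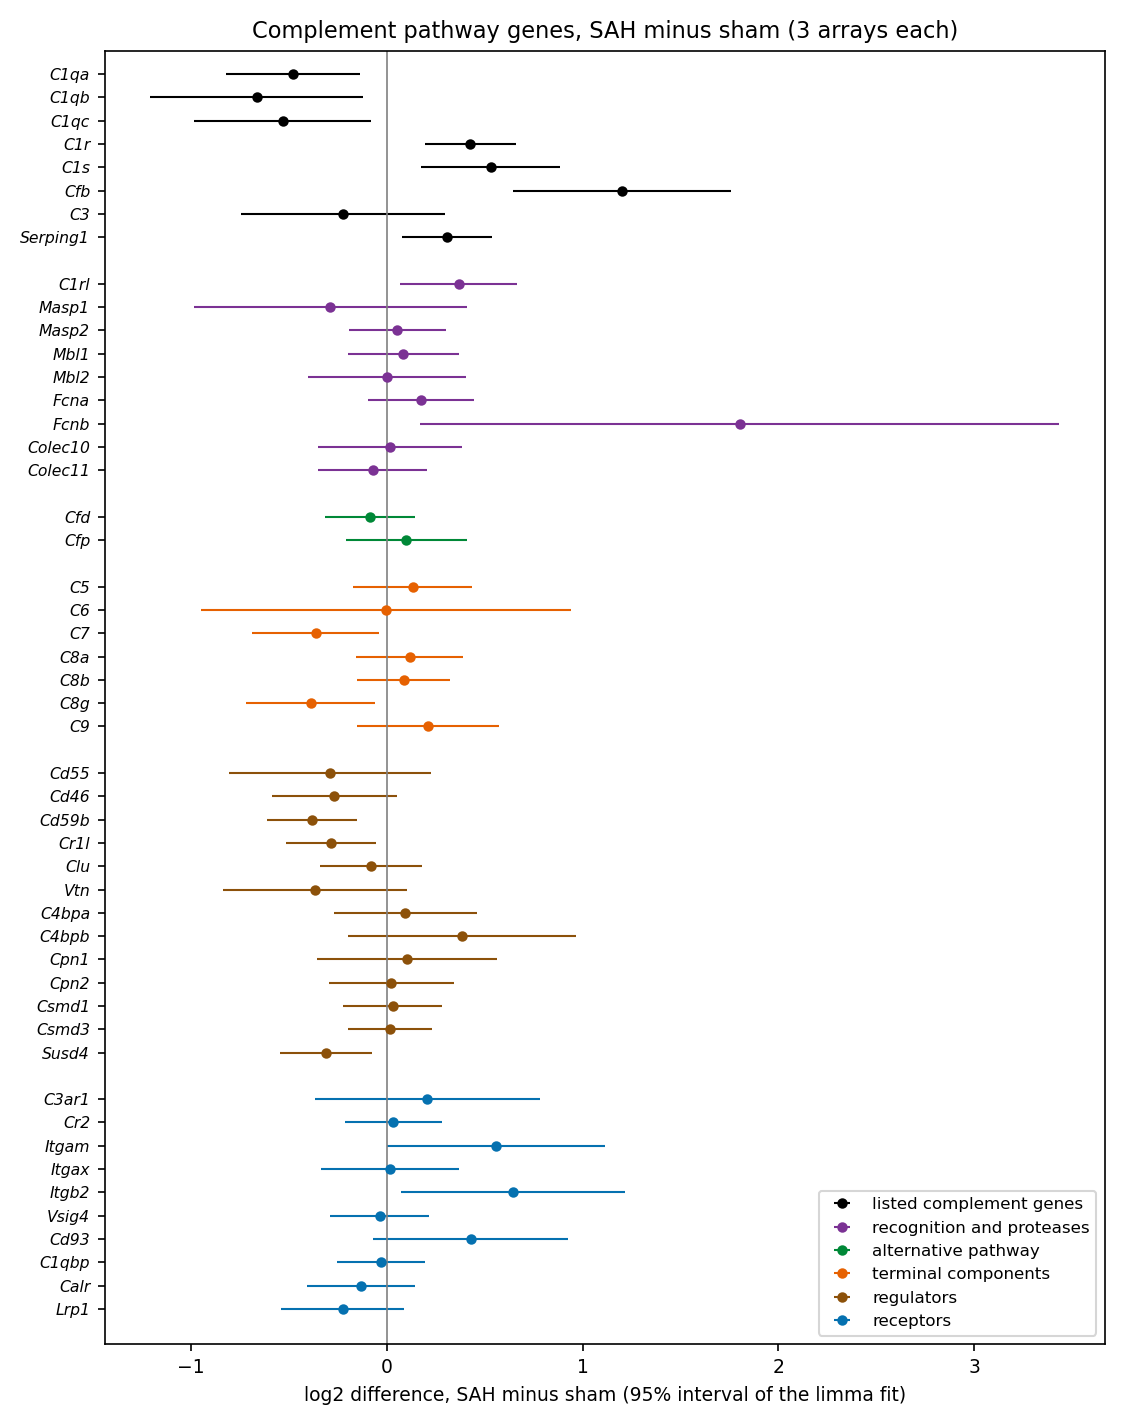
Log2 difference, SAH minus sham, with the 95% interval of the limma fit (horizontal axis) for the 8 listed complement genes (black, top) and 41 further complement genes, coloured by role. Cfb at 1.20 and Fcnb at 1.80 lie farthest to the right, the interval of Fcnb running from 0.17 to 3.44.

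Known inducers of complement genes are given beside them. Il6 read 10.26, 11.46 and 12.40 on SAH arrays 1, 4 and 5, against 9.34, 9.71 and 12.38 on sham arrays 6, 7 and 8, and Il1b differed by 0.35 ± 0.66 (SE) and Tnf by -0.30 ± 0.55. Among sham arrays, array 8 was the highest in each of these 3 cytokines and in Cfb. Among SAH arrays, array 5 was the highest in each of the 3 cytokines and the lowest in Cfb. Ifng, known to induce factor B and C1 inhibitor, lay below the median of every array and differed by 0.16 ± 0.14. Irf1, a transcription factor of the interferon response, differed by 0.52 ± 0.32 and Stat3, which acts below the IL-6 receptor, by 0.21 ± 0.10. None of the 10 inducers and factors measured passed, and their part in the complement values was not tested.

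The profile of each gene over the 6 arrays was set against those of 2278 or 2279 other genes that were brighter than the median probe set and had an SD of at least 0.3 over the arrays. The measure was Pearson's r, given as a description, since all profiles share the same 6 arrays and the same split into groups. Nearest to C1qa were Fibin, Nudt2 and Zfp423 (r = 0.991, 0.988 and 0.984), to C1qb Tspan7, Ralgdsl1 and Rab34 (0.999, 0.996 and 0.996), and to C1qc Fkbp14, Nsg2 and Akr7a2 (0.995, 0.992 and 0.991). Nearest to C1r were Mrpl30, Tapbpl and Shfl (0.995, 0.994 and 0.993), and to C1s Sectm1b, Arsi and RT1-CE15 (0.988, 0.983 and 0.977). Nearest to Cfb were Tlr6, Arhgap8 and Bex4 (0.991, 0.984 and 0.980), to Serping1 Klf10, Slc10a7 and Mx1 (0.972, 0.968 and 0.964), and to C3 Inmt, Npl and Alg2 (0.976, 0.974 and 0.969). Of these 24 genes, Tapbpl, Shfl and Mx1 passed the threshold, with differences of 0.96, 1.00 and 3.26 log2 units (limma adjusted p = 0.0211, 0.0211 and 0.0116). Over all genes 1.29% passed. The 24 were picked on these same arrays for likeness to profiles that mostly set the groups apart, so this count is a description only. The measure reads the shape of a profile and not the size of its difference.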

How the data were processed

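Gene expression was measured on 6 Affymetrix arrays, labelled with biotin from total RNA. The deposited values are log2 values, which the authors made with Affymetrix Expression Console 1.1.2 and RMA, per the submitters' processing notes; the sources used here give no genome build or settings. RMA includes quantile normalization, so a general change in RNA amount cannot be seen. The values were used as deposited, with 190 control probe sets set aside and 36495 tested.

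GEO's platform annotation, with symbols updated through NCBI RefSeq (GRCr8), named 1 gene for 18511 probe sets, several for 575 and none here for 17409. Each gene was read from its brightest probe set (by mean over the 6 arrays) among those naming it alone. Groups came from the sample titles, 3 SAH and 3 sham. The test was limma's (version 3.58.1 under R 4.3.3; lmFit and eBayes, two-sided, no covariate), Benjamini-Hochberg adjusted over all probe sets. It was checked on simulated data. Promoter windows came from RefSeq. The number of arrays limits the precision.

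The complement genes, gene lists and tests were chosen with earlier results of these data known. The rule for named genes took all listed complement genes, up to 5 further complement genes per role with the smallest p, up to 6 inducers, the 3 nearest profiles, and leading markers. Marker lists also covered neurons (4 measured), astrocytes (4), erythroid cells (2), lymphocytes (4), hepatocytes (4), smooth muscle (4), endothelium (5) and monocytes (7); of these Smtn alone, a smooth muscle gene, passed the threshold (difference -1.18). Alternatives were a repeated quantile normalization, array medians subtracted, a filter on dim probe sets (kept if above the array's median on at least 3 arrays), array weights, trend and robust options of eBayes, other thresholds, the median of a gene's probe sets, and each array left out.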

Additional observations from a re-analysis of the deposited data

How the results depend on the processing

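Over 12 refits of each of the 8 complement genes, 96 values in all, none changed sign and 93 stayed on the same side of the threshold. The exceptions were C1r and Cfb with dim probe sets filtered, and Cfb without sham array 8. Many of these refits could not change a sign. The filter, the trend and robust options and the median of a gene's probe sets left every difference as it was. Where groups did not overlap, neither leaving out an array nor array weights could change the sign. The count of complement genes past the threshold, 0 as reported, was 2 with dim probe sets filtered, which tests fewer probe sets. Of the genes kept by that filter 5.93% passed. The count was 1 at an adjusted p under 0.10, where 2.92% of all genes passed. With an array left out it was 0 to 1, the 1 being Cfb without sham array 8, where 0.523% of all genes passed. For the 41 further complement genes the count of 0 became 0 to 1 with an array left out, the 1 being Fcnb without sham array 8. The count over all genes, 235 as reported, was 672 of the 11323 genes kept with the filter. It was 373 with array weights and 363 with trend and robust options. At 0.10 it was 530, and with a log2 difference of at least 1 required it was 155. With an array left out it ran from 29 to 670. The cause of the moves other than the thresholds and the filter was not tested. No paired analysis was possible because the groups share no array number.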
